A study of Homo sapiens with 6 samples.

Results

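Expression of 8 human germline genes was examined in undifferentiated H7 cells, an established human embryonic stem cell (hESC) line, with and without S6K1. The genes were DDX43, OOEP, SOX30, SPESP1, MAEL, DAZL, SYCP3 and DDX4, which are 8 of the 61155 gene symbols counted. They were chosen around DDX43, OOEP, SOX30 and SPESP1 and selected on the S6K1-/- against WT counts of these same libraries, in which those 4 genes were higher, so the WT and S6K1-/- values of the 8 genes are given as a description, without a test. Bulk RNA sequencing covered 3 libraries of WT H7 hESCs and 3 of S6K1-/- H7 hESCs. Both groups were grown without feeders on Matrigel in TeSR-E8 medium. The S6K1-/- cells carry a CRISPR/Cas9 deletion in RPS6KB1, the gene of the kinase S6K1, made by targeting exon 9 and exon 11, and all 3 libraries are of clone #1. A difference between the genotypes and a difference between clones therefore cannot be told apart. The labels of these samples call the genotype a knockdown and give a time of week 5, whereas the protocol in the labels and the methods describe a knockout in undifferentiated cells. The samples are called WT and S6K1-/- here.

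Germline genes are used in primordial germ cells, oocytes, spermatocytes and spermatids and are silent in most other cells. In mammals many of them are kept silent by DNA methylation of CpG-rich promoters and by a Polycomb complex that contains MGA, MAX, L3MBTL2, PCGF6 and E2F6. Pluripotent stem cells lie close to the germline in development and transcribe part of this programme. DDX43 and DDX4 encode DEAD-box RNA helicases. MAEL and DDX4 act in the piRNA pathway, which silences transposons in germ cells, and DAZL encodes an RNA-binding protein that controls translation there. SYCP3 encodes a part of the synaptonemal complex that joins chromosomes in meiosis. OOEP encodes a member of the subcortical maternal complex of the oocyte, SOX30 a transcription factor of spermatids, and SPESP1 a protein of the sperm head.

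Library totals ranged from 21896698 to 24473013 counts, so that 3 counts in a library correspond to 0.122 to 0.138 counts per 1000000 (CPM). RPS6KB1 had 831, 791 and 777 counts in WT and 464, 464 and 438 counts in S6K1-/- hESCs. Within a group the libraries varied beyond counting error (chi-square over its degrees of freedom 2.24 to 4.53). Whether they come from separate cultures is not stated, so the p-values below measure only the spread between these libraries. The pluripotency marker POU5F1 was at 181 ± 3.71 CPM in WT and 177 ± 16.5 CPM in S6K1-/- hESCs (SD, n = 3 each). All 16 pluripotency markers were tested, and 2 of them (12.5%), DNMT3B and USP44, were lower in S6K1-/- hESCs, beside 2.54% of all genes tested. For 9 of the 16 the S6K1-/- libraries lay under the WT libraries without overlap, as for 16.7% of all genes tested, and the summed level of the markers was 8909 to 9104 CPM in WT and 8351 to 8479 CPM in S6K1-/- hESCs. In bulk RNA, a change in the number of cells that express a gene and a change in its RNA per cell cannot be told apart.

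DDX43 and OOEP, neighbours on chromosome 6, had the largest values among the 8 genes in S6K1-/- hESCs. The counts of DDX43 were 26, 14 and 12 in WT and 347, 363 and 308 in S6K1-/- hESCs. This gave 0.718 ± 0.304 CPM in WT and 14.7 ± 0.511 CPM in S6K1-/- hESCs (SD, n = 3 each). Every S6K1-/- library was above every WT library, and among the WT libraries replicate 1 was the highest. The fitted log2 fold change of DDX43 was 4.34 (standard error, SE, 0.158), and it was 4.75 without WT replicate 1. The ratio of the summed counts, scaled by library size, was 20.4 with an exact 95% interval of 15.4 to 27.5. That interval, like the others below, is a Clopper-Pearson interval and covers counting error only.
OOEP had 13, 11 and 10 counts in WT and 213, 204 and 198 counts in S6K1-/- hESCs. Its mean was 0.471 ± 0.0555 CPM in WT and 8.90 ± 0.325 CPM in S6K1-/- hESCs (SD, n = 3 each). The groups did not overlap, and the libraries within each group lay close together. The log2 fold change of OOEP was 4.22 (SE 0.152), and the ratio of the summed counts was 18.9 (exact 95% interval 13.4 to 27.5). For each count of DDX43 there were 0.614, 0.562 and 0.643 counts of OOEP in the S6K1-/- libraries and 0.500, 0.786 and 0.833 in the WT libraries. In GENCODE 44 on GRCh38, DDX43 lies on the plus strand from 73394828 to 73417566 and OOEP on the minus strand from 73368555 to 73395133. Their exons share 306 bases on opposite strands, which is 11.2% of the exonic length of DDX43 and 19.5% of that of OOEP. The libraries were made with a stranded mRNA kit, but the strand setting of the counting is not given in the sources used here. How reads in this stretch were assigned between the genes is therefore not known. The outermost GENCODE starts of the genes are 0.3 kb apart, whereas their RefSeq starts are 24.9 kb apart.
The promoter windows of DDX43 and OOEP are printed because these genes had the highest levels of the 8 in S6K1-/- hESCs and lie next to each other. Each window holds 250 bases before and 50 bases after a RefSeq start (GRCh38.p14), is written 5′ to 3′ on the strand of the gene, and carries in capitals the letters GCGGGA or TCCCGC, a core that E2F factors including E2F6 can bind, and CACGTG, an E-box that MGA and MAX can bind. The DDX43 window lies at chr6:73394578-73394877 on the plus strand and the OOEP window at chr6:73369848-73370147 on the minus strand.
DDX43: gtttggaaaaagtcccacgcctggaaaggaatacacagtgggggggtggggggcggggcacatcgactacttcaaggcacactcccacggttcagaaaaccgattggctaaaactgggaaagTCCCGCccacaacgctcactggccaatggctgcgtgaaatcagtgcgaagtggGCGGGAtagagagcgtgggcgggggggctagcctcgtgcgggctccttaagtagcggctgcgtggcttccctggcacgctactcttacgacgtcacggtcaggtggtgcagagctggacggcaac
OOEP: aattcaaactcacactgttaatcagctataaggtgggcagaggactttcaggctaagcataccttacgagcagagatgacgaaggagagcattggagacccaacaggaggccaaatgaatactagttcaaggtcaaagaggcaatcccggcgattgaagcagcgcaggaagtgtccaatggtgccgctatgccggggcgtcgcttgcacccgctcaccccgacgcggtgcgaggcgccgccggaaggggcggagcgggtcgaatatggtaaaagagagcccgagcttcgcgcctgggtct
The DDX43 window has 21 CpG dinucleotides and 2 matches to the E2F core, and the OOEP window has 23 CpG dinucleotides and no match to either motif. The OOEP window is that of the RefSeq start, and the GENCODE start next to DDX43 was not searched. Over 35116 RefSeq promoter windows of the same length the median was 14 CpG dinucleotides, 26.9% held the E2F core and 7.26% held the E-box. Both motifs were searched on both strands. A match describes letters and does not show a bound site.

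**Figure D1:**
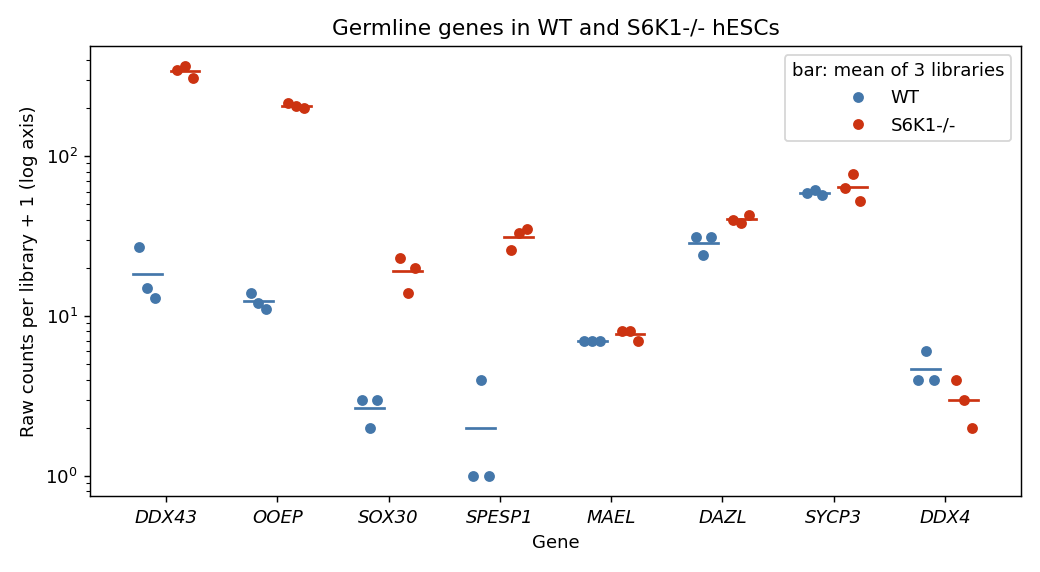
Raw counts plus 1 (log axis) of the 8 germline genes in each of 3 WT (blue) and 3 S6K1-/- (red) libraries, with a bar at the mean of each group. The S6K1-/- points of DDX43, OOEP, SOX30 and SPESP1 lie above all WT points, as do those of DAZL by a small gap. Those of SYCP3, MAEL and DDX4 meet or overlap with WT.

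SOX30 and SPESP1, the genes of spermatids and sperm, were near 0 in WT hESCs and low in S6K1-/- hESCs. SOX30 had 2, 1 and 2 counts in WT and 22, 13 and 19 counts in S6K1-/- hESCs. The groups did not overlap, and each WT library was at or under 3 counts. The ratio of the summed counts of SOX30, from 54 counts in S6K1-/- against 5 in WT, was 11.3 (exact 95% interval 4.54 to 36.1). Its fitted log2 fold change of 3.40 (SE 0.475) depends on the prior count and was 2.49 with a prior count of 2.
SPESP1 had 0, 3 and 0 counts in WT and 25, 32 and 34 counts in S6K1-/- hESCs. All its WT counts were in replicate 2. The ratio of the summed counts was 31.6, from 91 counts against 3, with an exact 95% interval of 10.5 to 156. The fitted log2 fold change of SPESP1 was 4.82 (SE 0.541), and it was 7.95 without WT replicate 2 and 3.47 with a prior count of 2. SOX30 and SPESP1 passed the filter on low counts only through the S6K1-/- libraries.
The windows of SOX30 and SPESP1 are printed for comparison with that of DDX43, at chr5:157671431-157671730 on the minus strand and chr15:68930275-68930574 on the plus strand. The SOX30 window printed is that of the RefSeq start farther upstream.
SOX30: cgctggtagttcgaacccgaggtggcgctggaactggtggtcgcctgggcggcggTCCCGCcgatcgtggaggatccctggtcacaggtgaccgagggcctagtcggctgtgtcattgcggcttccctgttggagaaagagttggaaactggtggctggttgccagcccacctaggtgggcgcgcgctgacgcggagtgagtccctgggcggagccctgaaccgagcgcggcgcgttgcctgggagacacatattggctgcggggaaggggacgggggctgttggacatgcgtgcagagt
SPESP1: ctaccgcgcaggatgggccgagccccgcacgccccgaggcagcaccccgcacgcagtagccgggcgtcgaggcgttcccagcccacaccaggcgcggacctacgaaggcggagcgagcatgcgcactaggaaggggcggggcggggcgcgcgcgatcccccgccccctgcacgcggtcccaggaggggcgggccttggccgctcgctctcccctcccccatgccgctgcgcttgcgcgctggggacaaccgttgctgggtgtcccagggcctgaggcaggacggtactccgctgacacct
The SOX30 window has 27 CpG dinucleotides and 1 match to the E2F core, and the SPESP1 window has 37 CpG dinucleotides and no match. The other RefSeq start of SOX30 has 15 CpG dinucleotides and no match. The SPESP1 window is that of the RefSeq start, and the outermost GENCODE start of SPESP1, which lies farther upstream, was not searched. SPESP1 lies on chromosome 15 from 68818221 to 68946811 and shares 193 exonic bases on the same strand with a readthrough gene from 68930504 to 69062743. GENCODE gives this readthrough the symbol NOX5, as it does the NADPH oxidase gene from 69014695 to 69062762, which does not overlap SPESP1. The symbol NOX5 had no count in WT and 4, 2 and 1 counts in S6K1-/- hESCs, and which of the 2 entries was counted is not given in the sources used here.

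The other genes of the germ cell RNA and meiosis machinery lay within or close to the WT range. DAZL had 30, 23 and 30 counts in WT and 39, 37 and 42 counts in S6K1-/- hESCs. Its groups did not overlap, but the gap was small beside that of DDX43, with 1.15 ± 0.191 CPM in WT and 1.71 ± 0.197 CPM in S6K1-/- hESCs (SD, n = 3 each). The log2 fold change of DAZL was 0.57 (SE 0.202).
SYCP3 had 58, 60 and 56 counts in WT and 62, 76 and 51 counts in S6K1-/- hESCs. The groups overlapped, since S6K1-/- replicate 3 was under all WT libraries in CPM. The log2 fold change of SYCP3 was 0.18 (SE 0.157). SYCP3 shares 566 exonic bases, 14.8% of its exonic length, with CHPT1 on the opposite strand, which had 394 to 440 counts in WT and 351 to 399 in S6K1-/- hESCs.
MAEL and DDX4 had too few counts to pass the filter. MAEL had 6 counts in each WT library and 7, 7 and 6 in the S6K1-/- libraries, a ratio of the summed counts of 1.16 (exact 95% interval 0.582 to 2.32). DDX4 had 3, 5 and 3 counts in WT and 3, 2 and 1 counts in S6K1-/- hESCs, a ratio of 0.569 (exact 95% interval 0.173 to 1.68).
The window of the downstream MAEL start, at chr1:166989030-166989329 on the plus strand, is printed as an example of a window with both motifs, which 1 of the DAZL windows also holds.
MAEL: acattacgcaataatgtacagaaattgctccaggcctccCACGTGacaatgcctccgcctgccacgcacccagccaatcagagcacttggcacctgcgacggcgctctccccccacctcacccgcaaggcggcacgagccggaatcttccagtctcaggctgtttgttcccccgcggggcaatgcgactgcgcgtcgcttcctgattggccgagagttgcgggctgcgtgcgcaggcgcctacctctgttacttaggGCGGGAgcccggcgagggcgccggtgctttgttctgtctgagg
It has 27 CpG dinucleotides. A RefSeq window was found for all 8 genes, 11 windows in all, of which 6 hold the E2F core and 2 the E-box. The E-box is in these MAEL and DAZL windows, and 2.46% of all promoter windows hold both motifs. By gene, 5 of 8 have a window with the E2F core, among them DDX43 and SOX30 but also MAEL, DAZL and SYCP3. The share over all promoters given above is by window and none was computed by gene, so nothing is read from this count. The DDX4 window has 1 CpG dinucleotide and neither motif, and is the only one of the 11 under the median of all promoters. It lies at chr5:55766635-55766934, inside the GENCODE span of DDX4, which begins at 55738017 on the plus strand. The outermost GENCODE starts of DDX4 and DAZL were not searched, so this value describes only the RefSeq start of DDX4.

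**Figure D2:**
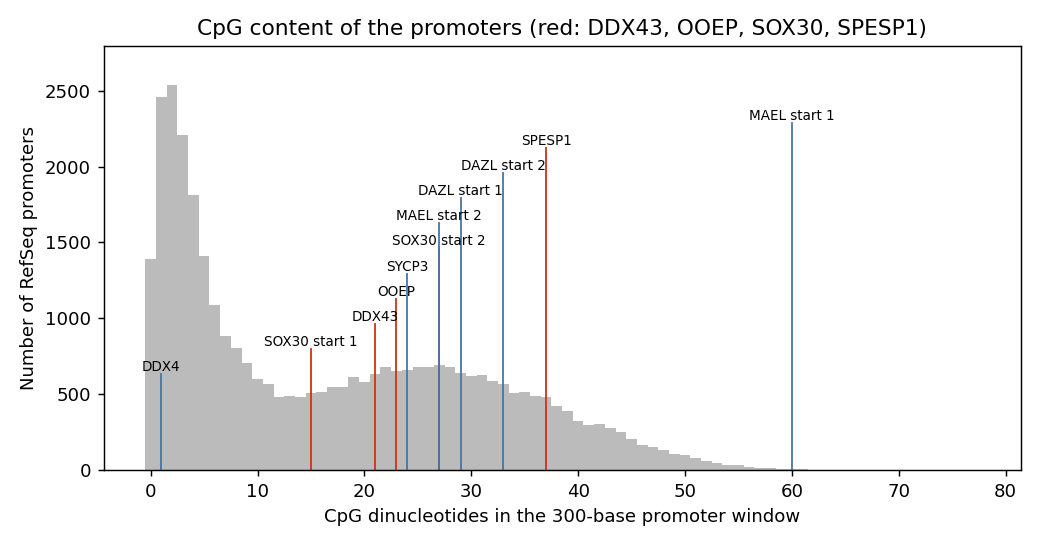
Number of RefSeq promoters (vertical axis, grey bars) by the number of CpG dinucleotides in the 300-base window (horizontal axis), with the windows of the 8 germline genes as lines whose height only spaces the labels. The windows of DDX43, OOEP, SOX30 and SPESP1 (red) hold 15 to 37 CpG dinucleotides, and those of the other genes (blue) 1 to 60, with starts numbered by position on the chromosome.

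Levels were compared between genes as CPM per kb of exonic length. In WT hESCs the order was SYCP3 with 0.630 ± 0.00760, DAZL with 0.324 ± 0.0536, OOEP with 0.299 ± 0.0353, DDX43 with 0.264 ± 0.112 CPM per kb (SD, n = 3 each) and the others under 0.1. The levels of DAZL, OOEP and DDX43 in WT overlapped within their SDs. In S6K1-/- hESCs, OOEP with 5.66 ± 0.207 and DDX43 with 5.40 ± 0.188 CPM per kb came first, again with overlapping SDs, followed by SPESP1 with 0.845 ± 0.159 and SYCP3 with 0.710 ± 0.110 CPM per kb, whose SDs also overlapped. DAZL was at 0.482 ± 0.0554, SOX30 at 0.225 ± 0.0606, MAEL at 0.0917 ± 0.00371 and DDX4 at 0.0224 ± 0.0107 CPM per kb. RPS6KB1, for scale, was at 4.32 CPM per kb in WT.

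**Figure D3:**
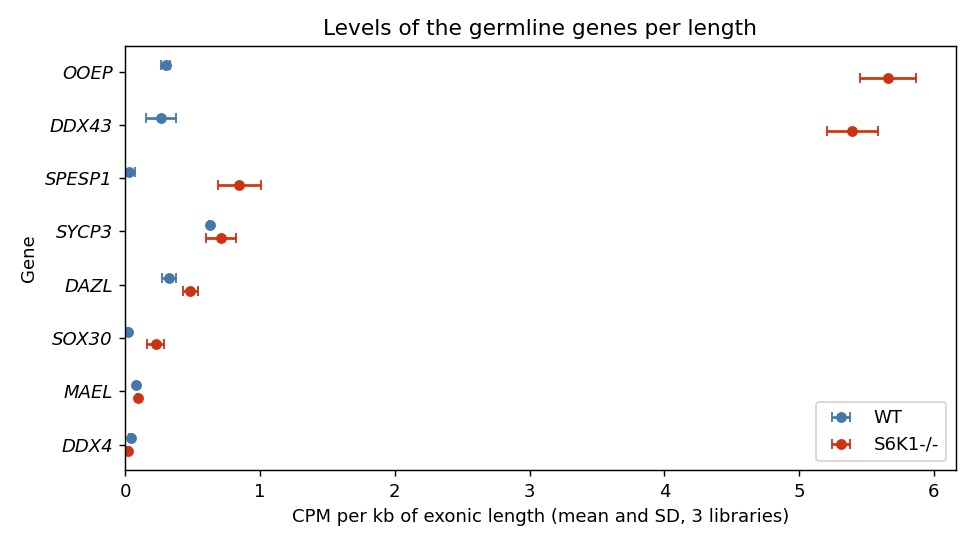
Level of each germline gene in CPM per kb of exonic length (horizontal axis; point mean, bar SD of 3 libraries) in WT (blue) and S6K1-/- (red) hESCs, ordered by the level in S6K1-/- hESCs. OOEP and DDX43 are above 5 CPM per kb in S6K1-/- hESCs, and all other values are under 1.

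Of the 8 genes, 6 passed the filter, SOX30 and SPESP1 only through the S6K1-/- libraries. As a description that the choice of the genes fixes, and not as a test of them, 4 of the 6 were on the higher side of the threshold used for all genes (adjusted p under 0.001, edgeR's quasi-likelihood test). Over the 19521 genes tested, 3.96% were past this threshold, 1.42% as higher and 2.54% as lower in S6K1-/- hESCs. For 5 of the 6, all but SYCP3, the S6K1-/- libraries lay above the WT libraries without overlap, as they did for 14% of all genes tested. The 4 genes are those that the choice was built on, and nothing is read from either count. The difference between these and the other 4 genes is fixed by the choice in the same way.

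The genes whose profile was most like that of DDX43, by Euclidean distance between mean-centred log2 CPM over the 6 libraries, were OOEP (distance 0.619), UBBP4 (0.788) and FRG1BP (0.968). UBBP4, a ubiquitin B pseudogene, and FRG1BP, an FRG1 pseudogene, have near copies elsewhere, so their counts are uncertain. UBBP4 had 91, 90 and 81 counts in WT and 1361, 1310 and 1256 counts in S6K1-/- hESCs. UBBP4 (0.177), FRG1BP (0.510) and AC073348.2 (0.521) were nearest to OOEP.
For SOX30 the nearest were the zinc finger gene ZNF528 (distance 0.367), the catalase gene CAT (0.524) and the pseudogene FRG1CP (0.551), and for SPESP1 they were AC016710.1 (0.703), FRG1BP (0.926) and RPL36AP53 (1.04). CAT had 47, 42 and 54 counts in WT and 240, 223 and 224 counts in S6K1-/- hESCs. Apart from OOEP, which is 1 of the 8 genes, none of these is among the 8 or in the lists of other germline genes used below. DAZL was nearest to OR2A1 (0.154), AP000866.3 (0.209) and FREM1 (0.218), and SYCP3 to MTATP6P1 (0.0767), ZNF653 (0.0927) and MT-ATP6 (0.102).

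Within 200 kb of DDX43, 11 other genes were tested, of which 3 were higher in the S6K1-/- libraries, beside 1.42% of all genes tested, and 8 did not pass the threshold. The higher genes were OOEP, itself 1 of the 8 genes, RPS6P8 and CGAS. RPS6P8, a processed pseudogene of RPS6, lies from 73391038 to 73391767 on the minus strand within OOEP and shares no base with its exons. It had 2, 0 and 3 counts in WT and 20, 11 and 19 counts in S6K1-/- hESCs, with a fitted log2 fold change of 3.29 (SE 0.566), which was 3.99 without WT replicate 3. It passed the filter on low counts only through the S6K1-/- libraries, so its values are a description. The groups did not overlap, but RPS6P8 was past 0.001 in only 1 of the 6 fits with a library removed, namely that without S6K1-/- replicate 2. RPS6 and its copies are nearly identical, and how reads shared among them were counted is not given in the sources used here.
CGAS, which encodes a sensor of cytosolic DNA, had 119, 138 and 120 counts in WT and 185, 186 and 177 counts in S6K1-/- hESCs. Its log2 fold change was 0.60 with an SE of 0.097 and an edgeR adjusted p = 5.40e-04. Every S6K1-/- library was above every WT library. CGAS was past 0.001 in only 1 of these 6 fits, namely that without WT replicate 2, and with the replicate number as a block the adjusted p was 0.00186 by edgeR. CGAS lies on the strand opposite to DDX43 and shares 180 exonic bases with it, and the part of this overlap in the CGAS counts was not tested.
DPPA5, a pluripotency gene that starts 40.6 kb from the DDX43 start, had 14, 17 and 17 counts in WT and 32, 29 and 35 counts in S6K1-/- hESCs, without overlap of the groups. Its log2 fold change of 1.06 did not pass the threshold (edgeR adjusted p = 0.00620). KHDC3L, an OOEP partner in the subcortical maternal complex that lies 4.4 kb from OOEP, had 3, 0 and 3 counts in WT and 1, 0 and 3 counts in S6K1-/- hESCs. OOEP-AS1, which shares 194 exonic bases with OOEP on the opposite strand, had 0, 2 and 1 counts in WT and 5, 4 and 5 counts in S6K1-/- hESCs. RPL39P3, another processed pseudogene on the minus strand within OOEP, also shares no base with its exons and had a log2 fold change of -0.14. MTO1, EEF1A1 and SLC17A5 on the far side of DDX43 had log2 fold changes of -0.04, 0.01 and -0.06. KHDC1 and EIF3EP1 on the side of OOEP had 0.18 and 0.60, and none of these genes was past the threshold. KCNQ5, at the edge of the interval, had a log2 fold change of -0.84 (edgeR adjusted p = 0.00467).

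**Figure D4:**
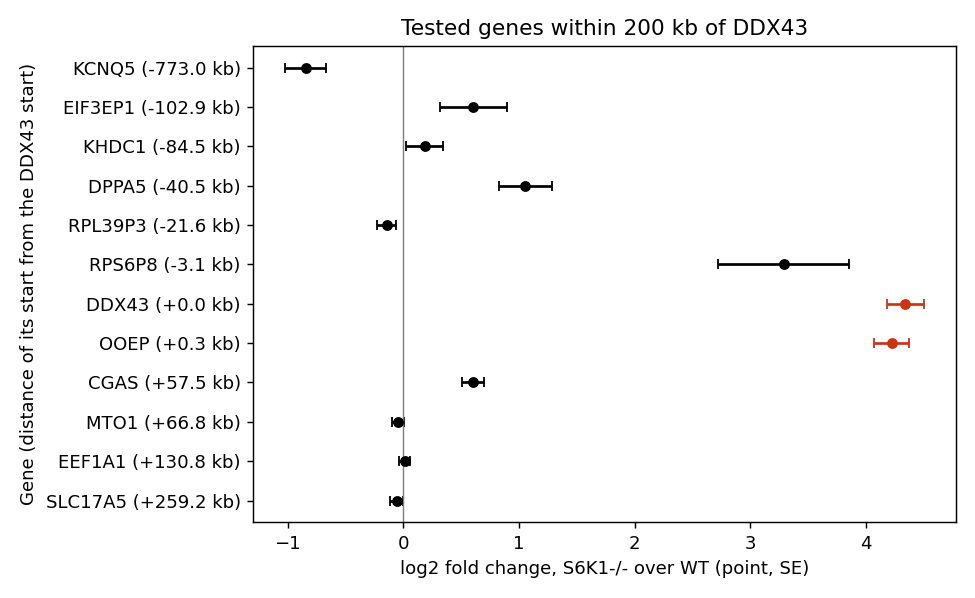
Log2 fold change (S6K1-/- over WT; point and standard error) of the tested genes within 200 kb of DDX43, ordered by the distance of their start from the DDX43 start. DDX43 and OOEP (red) are above 4 and RPS6P8 above 3, while MTO1, EEF1A1 and SLC17A5 are near 0.

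The neighbours of SOX30 and SPESP1 gave no gene past the threshold. C5orf52, which starts next to SOX30 on the other strand, had no count in any library. ADAM19, THG1L, LSM11 and CLINT1 near SOX30 had log2 fold changes of -0.00, 0.06, 0.09 and 0.10. ANP32A, whose span overlaps that of SPESP1 without shared exonic bases, had a log2 fold change of 0.09, CORO2B 0.11 and EWSAT1 -0.28. Over all 8 genes, 28 neighbours that are not among the 8 were tested, and 2 of them (7.14%), RPS6P8 and CGAS, were higher in the fit of all 6 libraries, beside 1.42% of all genes tested, but each in only 1 of the 6 fits with a library removed. Nothing is read from this count, since RPS6P8 was tested only through its S6K1-/- counts and CGAS shares exonic bases with DDX43.

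Of 312 other germline genes in 7 lists, which overlap in part, 303 were in the count table and 108 were tested. Among these, 6 (5.56%) were higher and 1 (0.926%) was lower, beside 1.42% and 2.54% of all genes tested. The lists were chosen with earlier results of these data known, so these shares are a description. The log2 fold change was above 0 for 51 of the 108, and its median was -0.02, beside -0.00 over all genes. CTCFL, PIWIL2, RNF212, STAG3, TFAP2C and PRDM14 were the higher genes, and SYCP2L was the lower gene. No count was found in any library for 60 of the 303 genes, and a count of 0 allows a level of up to 0.122 to 0.138 CPM in a library.
Among 26 tested cancer testis antigen genes, which like DDX43 are used in testis and in tumours, only CTCFL was higher and none was lower. CTCFL, the germline paralog of the insulator protein CTCF, had 40, 34 and 35 counts in WT and 175, 155 and 166 counts in S6K1-/- hESCs. The groups were far apart, with 1.51 ± 0.130 CPM in WT and 7.18 ± 0.621 CPM in S6K1-/- hESCs (SD, n = 3 each), which is a log2 fold change of 2.24 with an SE of 0.135 and an edgeR adjusted p = 1.71e-08. COX6B2 and ATAD2 had log2 fold changes of -0.93 and 0.17 (edgeR adjusted p = 0.0114 and 0.0207). The list had a median log2 fold change of -0.02.
Of 12 tested genes of the piRNA pathway and germ granules, the compartment of MAEL and DDX4, only PIWIL2 was higher and none was lower. PIWIL2, a PIWI protein that binds piRNAs, had 313, 314 and 291 counts in WT and 563, 574 and 510 counts in S6K1-/- hESCs. Its log2 fold change was 0.90 with an SE of 0.062 and an edgeR adjusted p = 7.56e-08, and no library of one group reached the other. TDRD5, a Tudor domain protein, rested on few reads, with 11, 10 and 9 counts in WT and 22, 19 and 27 in S6K1-/- hESCs, and it passed the filter only through the S6K1-/- libraries. TEX15 had a log2 fold change of -0.50 (edgeR adjusted p = 0.00208). PIWIL1 and ASZ1 had no count in any library. The median log2 fold change of the list was -0.19.
SYCP3 acts in meiosis, and of 17 other tested meiosis genes RNF212 and STAG3 were higher and SYCP2L was lower. RNF212, a factor of meiotic crossovers, had 27, 42 and 32 counts in WT and 93, 89 and 79 counts in S6K1-/- hESCs, which is a log2 fold change of 1.43 with an SE of 0.170 and an edgeR adjusted p = 3.20e-05. STAG3, a subunit of meiotic cohesin, was at 16.9 ± 0.157 CPM in WT and rose to 26.0 ± 1.45 CPM (SD, n = 3), a log2 fold change of 0.62 with an SE of 0.063 and an edgeR adjusted p = 6.97e-06. SYCP2L, a paralog of the SYCP3 partner SYCP2, fell from 110, 116 and 103 counts to 52, 38 and 31 counts, a log2 fold change of -1.38 with an SE of 0.160 and an edgeR adjusted p = 2.49e-05. SYCP2 itself had 14, 17 and 21 counts in WT and 7, 6 and 3 in S6K1-/- hESCs, and it passed the filter only through the WT libraries. DMC1, the meiotic recombinase, had a log2 fold change of -0.01, and STRA8, which marks entry into meiosis, had 1 count over all 6 libraries. The list had a median log2 fold change of -0.04.
None of 8 tested oocyte and maternal effect genes, the group of OOEP, passed the threshold in either direction. SOHLH2, DPPA3 and ZP3 had log2 fold changes of 0.60, -0.40 and -0.30 (edgeR adjusted p = 0.0473, 0.152 and 0.120). Of the partners of OOEP in the subcortical maternal complex, NLRP5 had no count, PADI6 at most 2 counts in a library, and TLE6 a log2 fold change of -0.20. None of 19 tested sperm and spermatid genes, the group of SOX30 and SPESP1, passed it either, with CREM at 0.21, SPACA4 at -0.68 and ODF2 at -0.17 on the log2 scale (edgeR adjusted p = 0.0517, 0.0841 and 0.0982). The medians of these lists were 0.05 and 0.06.
Of 20 tested genes of primordial germ cell specification, TFAP2C and PRDM14, transcription factors that pluripotent cells also use, were higher and none was lower. TFAP2C was at 41.4 ± 2.13 CPM in WT and rose to 54.1 ± 0.612 CPM (SD, n = 3), a log2 fold change of 0.38 with an SE of 0.049 and an edgeR adjusted p = 6.39e-05. PRDM14 rose by 0.29 on the log2 scale with an SE of 0.044 and an edgeR adjusted p = 3.62e-04 but missed 0.001 in 4 of the 6 fits with a library left out, those without WT replicates 1 and 3 and without S6K1-/- replicates 1 and 2, with an adjusted p of 0.00158 to 0.00390. UTF1 had a log2 fold change of 0.41 (edgeR adjusted p = 0.00170), and the list a median of -0.07. Among 13 tested genes of naive pluripotency and the stage of embryonic genome activation, none passed the threshold. VENTX was at 0.30, DPPA5 at 1.06 and TFCP2L1 at -0.29 on the log2 scale. The log2 fold change was above 0 for 4 of the 13, with a median of -0.35. For 6 of the 13 the S6K1-/- libraries lay under the WT libraries without overlap, beside 16.7% of all genes tested. For 2 they lay above, beside 14%.

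**Figure D5:**
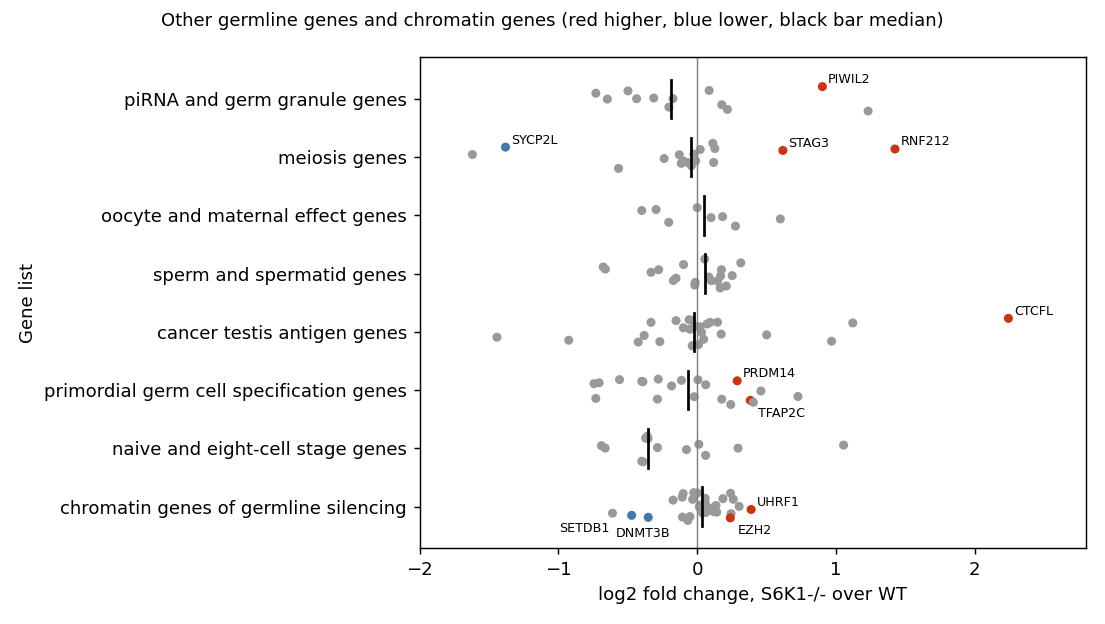
Log2 fold change (S6K1-/- over WT) of each tested gene in 7 germline lists and a list of chromatin genes, with genes past the threshold named and coloured (red higher, blue lower) and a black bar at the list's median. CTCFL at 2.24 lies farthest to the right, and most grey points lie near 0.

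Markers of germ cells and gonadal cells were read beside these values. The summed level of 9 primordial germ cell markers was 241 to 259 CPM in WT and 268 to 274 CPM in S6K1-/- hESCs, and 1 of 7 tested, TFAP2C, was higher, beside 1.42% of all genes tested. SOX17, a defining marker of human primordial germ cells, had 1 count in 1 WT library and none in the other 5 libraries, and NANOS3 had 0, 2 and 0 counts in WT and 4, 1 and 2 in S6K1-/- hESCs. PRDM1 had 34, 25 and 38 counts in WT and 25, 18 and 14 in S6K1-/- hESCs. None of 5 tested markers of testis somatic cells and none of 3 of ovary somatic cells passed the threshold, with summed levels of 15.1 to 17.2 and 19.4 to 21.0 CPM in WT and of 14.3 to 16.7 and 17.04 to 18.3 CPM in S6K1-/- hESCs.
For differentiated cells, 1 of 5 tested neuroectoderm markers was higher, PAX6, from 4.47 ± 0.447 to 7.58 ± 0.729 CPM (SD, n = 3 each), beside 1.42% of all genes tested, while the summed level of that list was 440 to 458 CPM in WT and 427 to 442 CPM in S6K1-/- hESCs. Of 5 tested mesenchyme markers 1 was lower, PDGFRB, from 7.90 to 3.11 CPM, beside 2.54% of all genes tested, and the summed level was 486 to 509 CPM in WT and 476 to 497 CPM in S6K1-/- hESCs. None of 7 tested mesendoderm and endoderm markers passed the threshold, but 5 of them were lower without overlap, beside 16.7% of all genes tested, the median log2 fold change was -0.74, and the summed level was 20.6 to 24.4 CPM in WT and 18.4 to 19.9 CPM in S6K1-/- hESCs. None of 3 tested amnion and trophoblast markers passed it, with a summed level of 20.8 to 22.6 CPM in WT and 17.8 to 19.8 CPM in S6K1-/- hESCs. PAX6 missed 0.001 without WT replicate 1 and without S6K1-/- replicates 2 and 3, with an adjusted p of 0.00149 to 0.00228 by edgeR. The part of these markers in the levels of the 8 germline genes was not tested.

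Chromatin genes that keep germline genes silent, or act on the same DNA methylation, were counted as 34 tested genes. Of these, 2 (5.88%) were lower and 2 (5.88%) were higher, beside 2.54% and 1.42% of all genes tested. For 13 of the 34 the S6K1-/- libraries lay above the WT libraries without overlap, beside 14% of all genes tested. For 6 they lay under, beside 16.7%. The log2 fold change was above 0 for 22 of the 34, with a median of 0.03. SETDB1, a histone H3 lysine methyltransferase, fell from 1556, 1464 and 1458 counts to 1037, 1068 and 992 counts, a log2 fold change of -0.47 with an SE of 0.046 and an edgeR adjusted p = 3.78e-06. DNMT3B, a DNA methyltransferase that is abundant in hESCs, was at 1412 ± 16.3 CPM in WT and fell to 1106 ± 48.5 CPM (SD, n = 3), a log2 fold change of -0.35 with an SE of 0.044 and an edgeR adjusted p = 4.88e-05. For both genes all S6K1-/- libraries were under all WT libraries.
UHRF1, which brings DNMT1 to replicated DNA, rose by 0.39 on the log2 scale with an SE of 0.052 and an edgeR adjusted p = 1.04e-04, and missed 0.001 only without S6K1-/- replicate 1 (adjusted p = 0.00132). EZH2, the methyltransferase of Polycomb complex PRC2, rose by 0.24 on the log2 scale (edgeR adjusted p = 7.67e-04) but missed 0.001 in each of the 6 fits with a library left out and with the replicate number as a block (adjusted p = 0.00144 to 0.00517). DNMT1 had a log2 fold change of 0.06. In the complex with MGA, none of MGA, MAX, L3MBTL2, PCGF6 and E2F6 passed the threshold, with log2 fold changes of 0.30, -0.01, -0.11, -0.10 and 0.14, and MGA had the smallest adjusted p of these (0.00301 by edgeR). DNA methylation and protein were not measured in these libraries, and no relation of these genes to the germline genes was tested.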

How the data were processed

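Bulk RNA sequencing of WT and S6K1-/- H7 hESCs (3 libraries each) was analysed from the gene counts. According to the methods and the submitters' processing notes, the authors trimmed reads with Trim Galore 0.6.5, aligned them to GRCh38 with Bowtie2 2.4.5, which does not align across splice junctions, and deposited raw counts from featureCounts per gene symbol, without normalization. The annotation release and strand setting are not given in the sources used here. The authors' own DESeq2 comparison (mean counts, fold changes, standard errors, statistics and p-values) was not used.

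Genes were filtered with filterByExpr (19521 of 61155 kept), scaled by TMM and tested with edgeR's quasi-likelihood test (edgeR 4.0.16, R 4.3.3, prior count 0.125), with genotype as the only factor, Benjamini-Hochberg adjustment over all genes tested and the study's threshold of 0.001. Standard errors are the log2 fold change over the square root of F. CPM uses TMM-scaled library sizes. The steps were tested on simulated data. Gene spans and exonic lengths are those of GENCODE 44, and promoter windows those of RefSeq (GRCh38.p14).

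The 8 genes and all lists were chosen with earlier results of these data known. Named genes are the 8 genes, RPS6KB1, up to 5 genes past the threshold per list and direction, topped up by p to 3 per list, tested neighbours within 200 kb of DDX43, OOEP, SOX30 and SPESP1, and the 3 genes with the most similar profile (prior count 2). KHDC3L, OOEP-AS1, C5orf52, NOX5, CHPT1, POU5F1, PIWIL1, ASZ1, DMC1, STRA8, SYCP2, NLRP5, PADI6, TLE6, SOX17, NANOS3, PRDM1, DNMT1 and the MGA complex were named for their known roles or positions after their values were seen. Alternatives were DESeq2 1.42.0 size factors and Wald test, other filters, a threshold of 0.05, a prior count of 2, the replicate number as a block, and each library left out.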

Additional observations from a re-analysis of the deposited data

How the results depend on the processing

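Against 278 higher and 496 lower genes in all, and 6 and 1 among the other germline genes, leaving out each library gave 175 to 235 higher and 313 to 445 lower genes, with 5 to 7 and 1 to 2 germline genes. Without a filter on low counts, 591 genes were higher and 982 lower, and of the germline genes 8 were higher and 3 lower. At an adjusted p under 0.05, 1067 genes were higher and 1622 lower, with 14 germline genes higher and 8 lower. DESeq2's Wald test gave 7 higher and 2 lower germline genes. Higher genes fell to 175 and 179 without S6K1-/- replicates 1 and 2, lower genes to 313 without S6K1-/- replicate 3, and lower germline genes were 2 without WT replicate 2. With the replicate number as a block, 241 genes were higher and 423 lower, and 7 and 1 of the germline genes. Same-numbered libraries were not taken as pairs, as their deviations correlated only at 0.00174 to 0.0316, and only the pair numbered 3 correlated best with its own number. The log2 fold change stayed from 4.17 to 4.75 for DDX43, 4.01 to 4.33 for OOEP, 2.49 to 3.61 for SOX30, 3.47 to 7.95 for SPESP1, 0.44 to 0.66 for DAZL and 0.05 to 0.28 for SYCP3 over the alternatives. SOX30 could not be fitted with at least 1 CPM in 3 libraries. Why the counts of genes moved was not tested. At this depth MAEL, DDX4 and 195 of the 303 other germline genes had too few counts for a test.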
